A study of Mus musculus with 16 samples.

Results

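The genes described here build and move the mitotic chromosome: kinetochore and centromere proteins, spindle checkpoint proteins, Aurora kinases, kinesins, condensin and cohesin subunits, and the genes named for cell division cycle association (CDCA). They were chosen by symbol, as all genes of the RNA-seq table whose names begin with Cenp, Kif and a digit, Bub, Aurk, Smc and a digit, Ncap or Cdca, or are a Ska or Spc subunit. This rule found 84 of the 15386 genes of the RNA-seq table, and all 84 symbols were also among the 13490 genes of the m6A table. Since the rule read names and not function, it also took in 21 kinesins and kinesin partners that mostly carry cargo in interphase cells. It took in 3 further genes too (*Cenpj*, *Cenpv* and *Aurkaip1*), which were set apart from the other subgroups.

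Chromosomes are first held together as sister chromatids by cohesin, a ring of SMC1A and SMC3, and are then folded by condensin, of which condensin I and condensin II share SMC2 and SMC4 but have different HEAT and kleisin subunits. The kinetochore is assembled on nucleosomes that carry the histone variant CENP-A: an inner layer of CENP proteins (the constitutive centromere-associated network, CCAN) sits on the DNA, and an outer layer binds microtubules and carries the spindle checkpoint. Mitotic kinesins separate the poles, align chromosomes and build the midzone at which the cell divides. Erythroid progenitors divide rapidly before they lose their nucleus.

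Cells were sorted from the bone marrow of adult C57BL/6 mice of both sexes as erythroid progenitors of the CFU-E stage, and 3 control CFU-E libraries of RNA-seq were compared with 3 of CFU-E Kit-lo cells from *Mettl3*-deficient mice. METTL3 is the methyltransferase that writes N6-methyladenosine (m6A) on mRNA, and the deficient mice were *Mettl3* fl/fl with EpoR-tdTomato-Cre, a Cre that recombines in erythroid cells and in the macrophages of erythroblastic islands. Both sets of cells came through 1 CFU-E gate (negative for lineage markers and positive for Kit and CD71), and the deficient cells were further those with very low surface Kit, so genotype and gate cannot be told apart, and control cells of the same low Kit were not analysed here. The labels do not give the genotype of the controls. A second experiment on control CFU-E cells held 2 libraries after m6A immunoprecipitation (IP) and 2 of the input RNA. Nothing in the labels says whether the replicates were separate mice, so the p-values measure the spread between these libraries.

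Library totals ran from 17429262 to 21329242 estimated counts in the RNA-seq and from 19421059 to 37142742 in the m6A experiment. Normalized by library size (CPM, read counts scaled to a common total), *Mettl3* stood at 115, 123 and 130 CPM in control, whereas the libraries that carry the label *Mettl3*-deficient had 117, 127 and 108 CPM (log2 fold change -0.07 ± 0.10, adjusted p = 0.63), so its level does not check the labels. *Kit* was at 598 ± 47.1 CPM in control and 55.2 ± 12.4 in Kit-lo (SD, n = 3 each), as the gate was drawn. The 8 erythroid markers summed to 3127 to 3236 CPM in control and 3486 to 3809 in Kit-lo, and among them *Slc4a1*, the anion exchanger of later erythroid cells, was at 0.958 to 3.15 CPM in control and 198 to 352 in Kit-lo. The 7 lymphoid markers in the table summed to 0.862 to 2.81 CPM and 3.95 to 6.26 CPM, the 7 macrophage markers to 8.41 to 13.0 and 7.72 to 9.34 CPM, the 7 granulocyte and monocyte markers to 26.2 to 39.7 and 15.3 to 27.0 CPM, the 4 megakaryocyte markers to 13.1 to 20.4 and 20.0 to 25.9 CPM, the 4 mast cell markers to 1.37 to 5.10 and 0 to 2.92 CPM, and the 3 stem cell markers to 0.718 to 2.12 and 0.291 to 0.887 CPM. *Adgre1* was at 0 in the 3 Kit-lo libraries and at no more than 0.115 CPM in control. The part of these shifts in the results on the mitotic genes was not tested.

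Many genes of this machinery share promoter elements. The cell cycle genes homology region (CHR, written TTTGAA) is bound by the DREAM and B-MYB complexes, the E2F element (written GCGGGAA) by E2F factors, and the CCAAT box (written CCAAT) by NF-Y, and all were searched on both strands of the RefSeq promoters of GRCm38.p6, from 250 bases before to 50 bases after each annotated start. Entries existed for 71 of the 84 genes, with 80 promoters in all, and 4 matches shared bases with a match of another motif. A CHR match stood in 40% of the 80 promoters, against 17.9% of all 32851 promoters in the table. Within 50 bases of the start, where many of these matches lay, the shares were 30% and 4.94%. E2F matches stood in 17.5% of the promoters against 4.60% of all, and CCAAT boxes in 56.3% against 37.4%.

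The elements were not spread evenly over the subgroups. CHR matches were in 75% of the 12 promoters of mitotic kinesins, 66.7% of 9 outer kinetochore promoters and 62.5% of 8 condensin promoters, but in 20% of 20 inner kinetochore promoters and 11.8% of 17 promoters of transport kinesins. For E2F the inner kinetochore led, with matches in 45% of 20 promoters, while the outer kinetochore promoters and those of the transport kinesins held 0. These are shares of letters in a window of 300 bases, and no binding was measured.

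**Figure D1:**
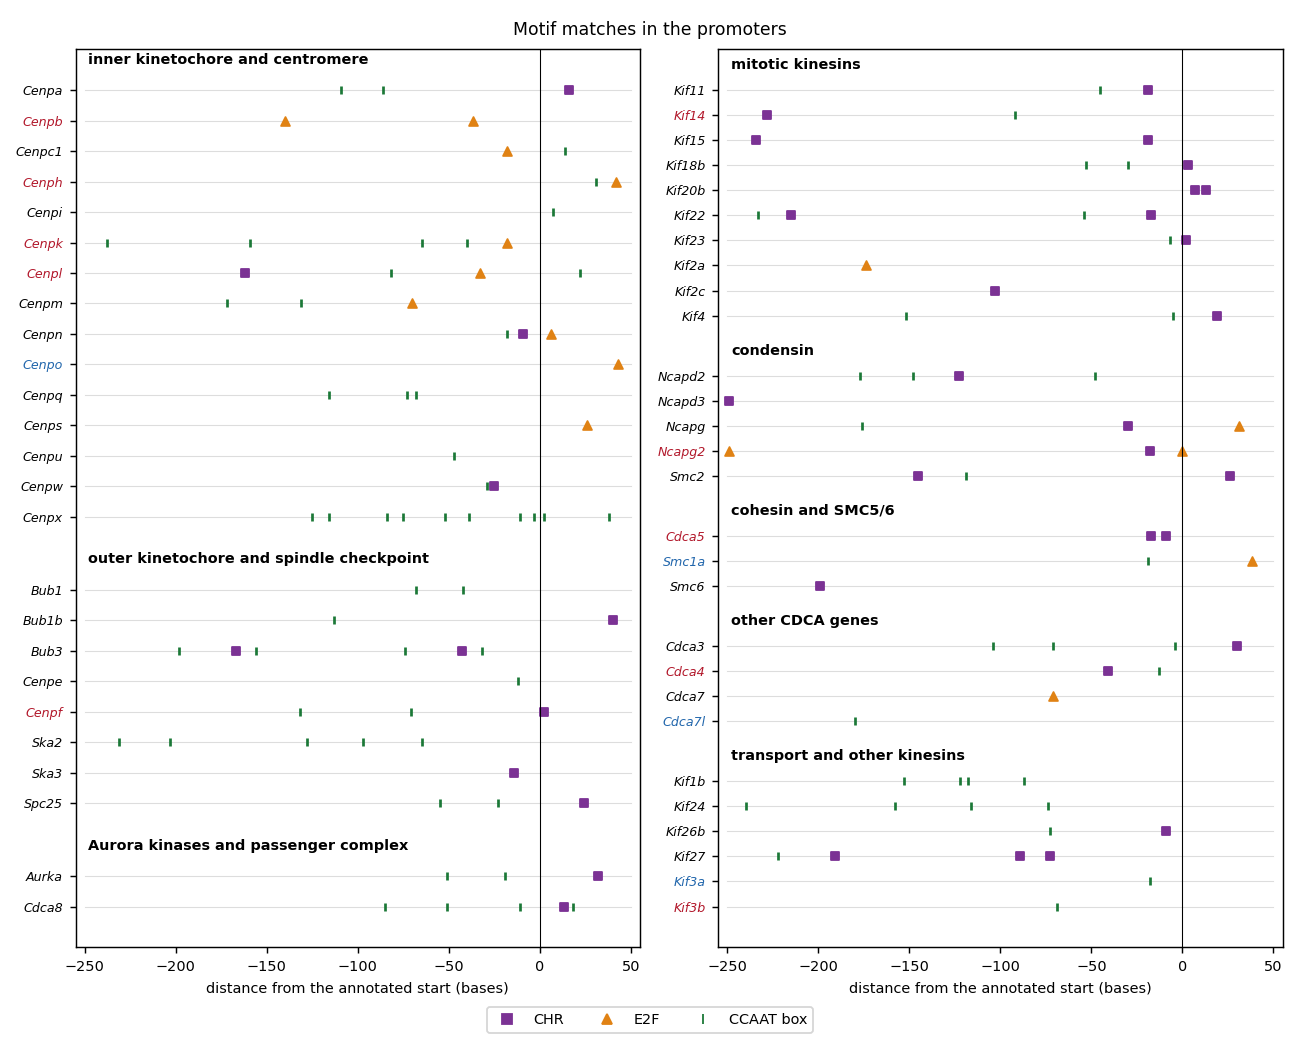
Matches to the CHR (squares), E2F (triangles) and CCAAT (ticks) letters in each promoter with at least 1 match, by subgroup, plotted at the distance of the match's first base from the RefSeq start, in bases. Several annotated starts of a gene are drawn on 1 line, symbols in red rose and in blue fell in Kit-lo cells, and CHR squares of kinesins and outer kinetochore genes crowd near the start while the triangles stand mainly on the inner kinetochore lines.

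Windows around CHR matches near the start are shown for the 4 genes that have one and that were higher in Kit-lo cells. Then follow 3 genes that have one and did not pass both thresholds. Of these 3, *Aurka* and *Kif18b* lay above control in every Kit-lo library at a fold under 1.5, and *Cenpa* lay below. Capitals mark the CHR, and each run is 5′ to 3′ on the strand of the gene.
Cdca5: aaggcgggcaaTTTGAAcgtttgaagca
Ncapg2: acgcgggtgtgTTTGAAtctggtccgag
Cenpf: gcggcgggcagTTTGAAtcgctcgtgct
Cdca4: ccttgcgtgggTTTGAAcaaagctccac
Aurka: aaaggagaaccTTTGAAttgtaacggct
Kif18b: ggaccggctagTTTGAAcgcgccgcgcc
Cenpa: gcgggtgatttTTTGAActgctggcgac
In GRCm38.p6 these windows are chr19:6085069-6085096 (+ strand) for *Cdca5*, chr12:116405407-116405434 (+) for *Ncapg2*, chr1:189688068-189688095 (- strand) for *Cenpf*, chr12:112829414-112829441 (-) for *Cdca4*, chr2:172370522-172370549 (-) for *Aurka*, chr11:102925105-102925132 (-) for *Kif18b* and chr5:30666891-30666918 (+) for *Cenpa*. The first base of the CHR lay at -17, -18, 2, -41, 32, 3 and 16 from the start, in that order, where 0 is the first transcribed base. *Cdca5* holds a further match at -9, visible in lower case in its window.

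Windows around E2F matches are shown for the 4 inner kinetochore genes that were higher in Kit-lo cells and for the 2 genes with an E2F match that were lower. Capitals mark the element, read as TTCCCGC where it lies on the opposite strand.
Cenpl: gcggcagtatGCGGGAAagtttcgcac
Cenpk: gcgtgttacgTTCCCGCgtctccacct
Cenpb: gtccccccgcTTCCCGCgagatcccgc
Cenph: caatttcgtgGCGGGAAg
Cenpo: gttgctctcgGCGGGAA
Smc1a: actgcgctatTTCCCGCgcggg
Their positions in GRCm38.p6 are chr1:161070724-161070750 (+) for *Cenpl*, chr13:104229360-104229386 (+) for *Cenpk*, chr2:131180088-131180114 (-) for *Cenpb*, chr13:100775850-100775867 (-) for *Cenph*, chr12:4233916-4233932 (-) for *Cenpo* and chrX:152016456-152016477 (+) for *Smc1a*. The elements start at -33, -18, -37, 42, 43 and 38 from the start in that order, and the last 3 runs end where the promoter entry ends.

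Between Kit-lo and control cells some subunits of this machinery were higher and others lower, at a rate near that of all genes. Of the 84 genes, 79 had enough counts to be tested, and 12 were higher and 5 lower at a fold change of at least 1.5 and an adjusted p-value under 0.05 (differentially expressed genes, DEGs). That is 21.5% of the 79, beside 22.0% of all 11979 genes tested. Upward calls made up 15.2% beside a background of 12.1%, and downward calls 6.33% beside 9.83%. The median log2 fold change of the 79 genes was 0.08, against 0.01 over all genes, with 47 above 0 and 32 below. In 39 of the 79 (49.4%) all 3 libraries of 1 group lay beyond all 3 of the other, beside 47.5% of all genes. In sorted bulk cells, fewer cells of a type and less RNA per cell cannot be told apart.

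The genes that rose were *Cdca5*, *Cdca4*, *Kif14*, *Cdca2*, *Kif3b*, *Cenpl*, *Kif13b*, *Cenpk*, *Cenpb*, *Cenph*, *Cenpf* and *Ncapg2*, and those that fell were *Kif3c*, *Cenpo*, *Kif3a*, *Smc1a* and *Cdca7l*. Of those for which no promoter window is printed, the GENCODE annotation of GRCm38 places *Kif14* at chr1:136466343-136531511 (+), *Kif3b* at chr2:153291413-153333390 (+), *Kif3a* at chr11:53567379-53601967 (+), *Kif3c* at chr12:3365132-3406494 (+), *Cdca7l* at chr12:117804289-117878706 (+), *Kif13b* at chr14:64647265-64809617 (+) and *Cdca2* at chr14:67676331-67715841 (-). Another 7 genes were higher and 4 lower at an adjusted p-value under 0.05 but with a fold change under 1.5; without the fold threshold the calls make up 28 of 79, beside 34.5% of all genes. The 5 genes with too few counts, *Kif17*, *Kif27*, *Kif28*, *Kif5a* and *Kif5c*, stayed at or under 2.06 CPM in every library. Together the 84 genes took 0.947% to 0.962% of the counts of the control libraries and 1.01% to 1.13% of those of the Kit-lo libraries.

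**Figure D2:**
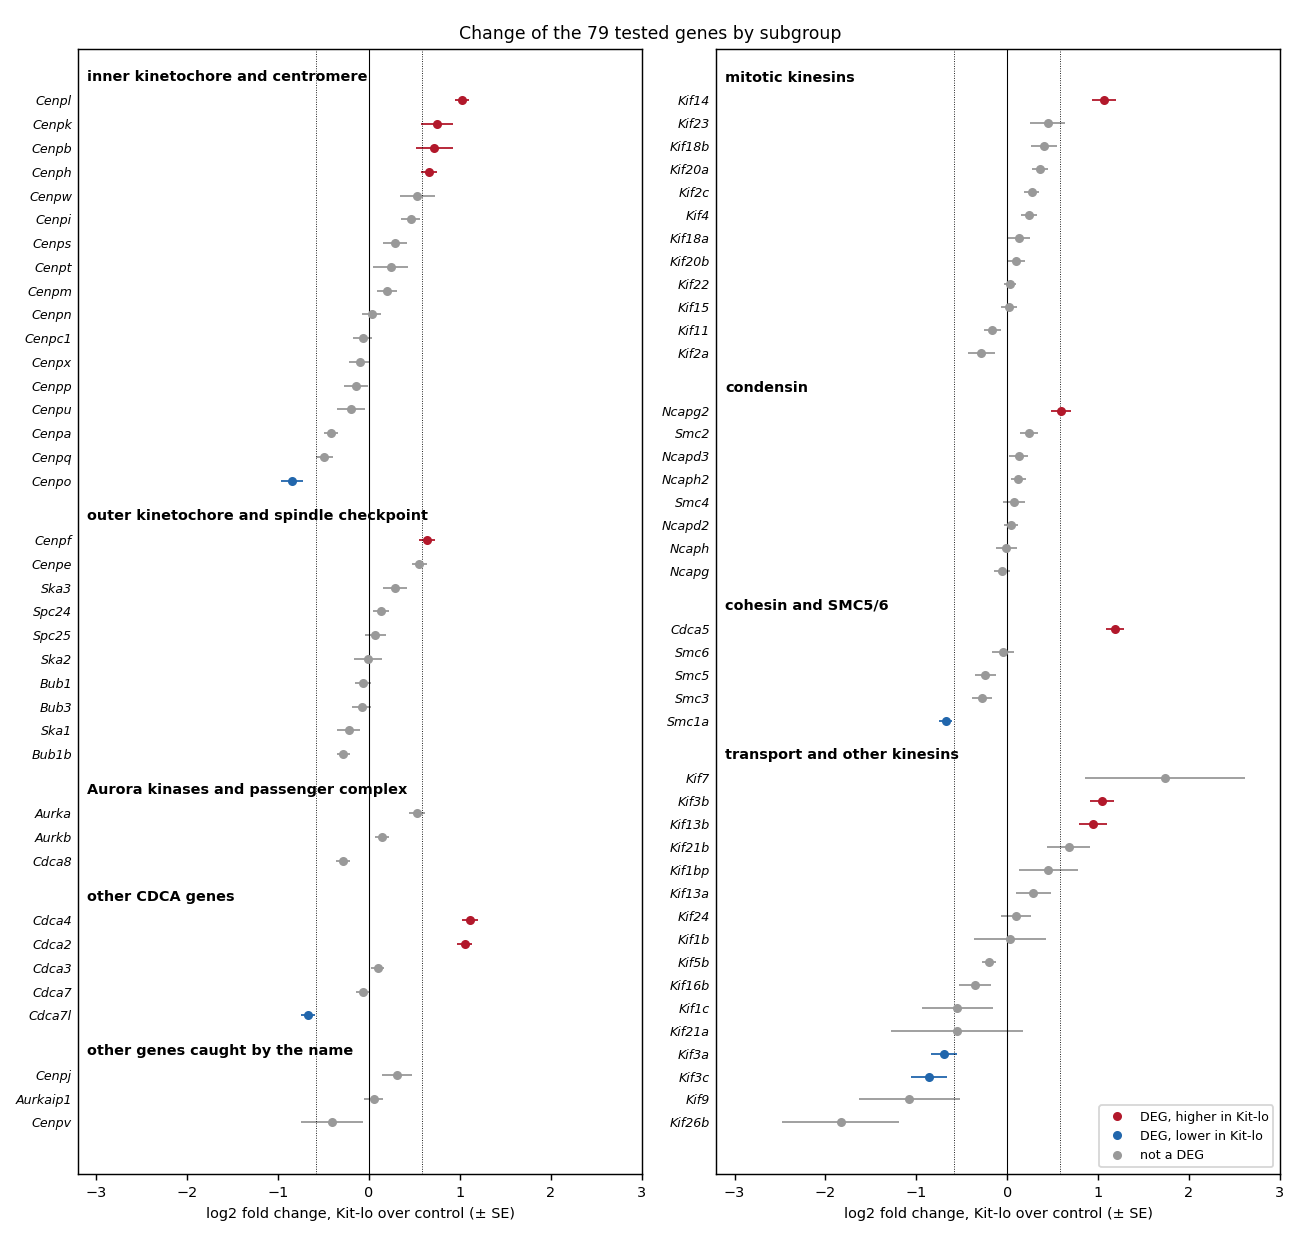
Log2 fold change of Kit-lo over control (points) with its standard error (bars) for the 79 tested genes, grouped by their role, with dotted lines at a fold change of 1.5 in either direction. Red points are the 12 DEGs that rose and blue points the 5 that fell; every subgroup with a DEG also holds genes near 0, and *Kif7*, *Kif9*, *Kif21a* and *Kif26b*, at low counts, have the long bars.

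The inner kinetochore held the most DEGs by count, 4 higher and 1 lower of its 17 genes (29.4%, beside 22.0% of all genes). Its median log2 fold change was 0.20. The share called was larger in 2 smaller subgroups, cohesin with SMC5/6 (40% of 5 genes) and the other CDCA genes (60% of 5). *Cenpl*, a CCAN subunit that pairs with CENP-N, was at 106, 109 and 108 CPM in control and at 216, 212 and 228 CPM in Kit-lo. The groups lie far apart with little scatter (log2 fold change 1.02 ± 0.08, adjusted p = 1.1e-05). *Cenph*, of the CENP-H/I/K group of the CCAN, was at 101, 109 and 111 CPM in control and at 174, 176 and 158 CPM in Kit-lo (0.66 ± 0.09, adjusted p = 0.00031). Its partner *Cenpk* was scarcer, at 10.7, 10.1 and 9.62 CPM and then 14.8, 17.3 and 18.9 CPM (0.75 ± 0.17, adjusted p = 0.0082). *Cenpi*, of the same group, also lay above control in every Kit-lo library, at 44.97, 49.1 and 48.4 CPM against 66.0, 68.6 and 61.4 CPM, but its fold change stayed under 1.5 (log2 fold change 0.46 ± 0.10, adjusted p = 0.0069). *Cenpm*, the remaining member of that group, overlapped between the groups (0.20 ± 0.11, adjusted p = 0.21). *Cenpb*, which binds a short box in centromeric DNA, was at 9.05, 10.2 and 6.93 CPM in control and 13.3, 14.5 and 15.3 CPM in Kit-lo (0.72 ± 0.20, adjusted p = 0.020), and it lost its call when control replicate 1 or 3 was left out.

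*Cenpo* went the other way. This subunit of the CENP-O/P/Q/U/R group of the CCAN was at 45.7, 45.1 and 43.7 CPM in control and at 25.1, 26.2 and 23.4 CPM in Kit-lo (log2 fold change -0.85 ± 0.12, adjusted p = 0.00042). It shares 22.5% of its exonic bases with *Adcy3* and *Ptrhd1* on the opposite strand. Whether the counting used strand is not stated, so the change of *Cenpo* is uncertain. The same holds for the genes below that are given with exonic bases shared in this way. It also holds for genes below that are not so marked, with smaller shares in others. These include *Kif7* (20.3%), *Ncaph2* (19.7%), *Kif4* (15.1%), *Ncapg* (13.4%), *Cenpp* (12.6%), *Ska2* (10.1%) and *Kif1bp* (10.1%). Of its group, *Cenpq* was also lower in every Kit-lo library (-0.49 ± 0.09, adjusted p = 0.0025) at a fold under 1.5, *Cenpp* lay just below control in every library (-0.14 ± 0.13, adjusted p = 0.46) and *Cenpu*, which shares 26.7% of its exonic bases with *Primpol*, overlapped between the groups (-0.20 ± 0.15, adjusted p = 0.35). *Cenpa* itself, the centromeric histone and the inner kinetochore gene with the highest CPM, was at 360, 368 and 373 CPM in control and at 261, 287 and 275 CPM in Kit-lo. All Kit-lo values were below all control values, but the fold was under 1.5 (-0.42 ± 0.07, adjusted p = 0.0016). The remaining inner genes, *Cenpc1*, *Cenpn*, *Cenps*, *Cenpt*, *Cenpw* and *Cenpx*, had log2 fold changes from -0.10 to 0.53 and adjusted p-values above the threshold.

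Among the 10 outer kinetochore and checkpoint genes, 1 rose and none fell (10%, beside 22.0% of all genes), and the median log2 fold change was 0.03. *Cenpf*, a large coiled-coil protein of the outer kinetochore, was at 110, 100 and 107 CPM in control and at 153, 176 and 164 CPM in Kit-lo (0.63 ± 0.09, adjusted p = 0.00044). *Cenpe*, the kinetochore motor that aligns chromosomes, had values of 188, 181 and 206 CPM and then 271, 298 and 275 CPM, just under the fold threshold (0.55 ± 0.08, adjusted p = 0.00066). *Bub1b*, which encodes the checkpoint protein BUBR1, has the highest CPM of the subgroup and was lower in every Kit-lo library, at 239, 228 and 235 CPM against 195, 188 and 193 CPM, by a small fold (-0.29 ± 0.07, adjusted p = 0.013). For *Bub1*, *Bub3*, *Ska1*, *Ska2*, *Ska3*, *Spc24* and *Spc25* the groups overlapped, and the log2 fold changes were from -0.23 to 0.28.

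None of the 3 genes for Aurora kinases and borealin passed both thresholds (0%, beside 22.0% of all genes). *Aurka*, the kinase of centrosomes and spindle poles, came nearest, at 265, 254 and 295 CPM in control and 410, 410 and 356 CPM in Kit-lo (log2 fold change 0.53 ± 0.09, adjusted p = 0.0014). *Aurkb*, the kinase of the chromosomal passenger complex, was at 379, 389 and 398 CPM against 447, 447 and 393 CPM, with overlapping groups (0.14 ± 0.08, adjusted p = 0.19). *Cdca8*, which encodes the passenger subunit borealin, was at 406, 369 and 421 CPM against 331, 322 and 328 CPM, lower in all 3 Kit-lo libraries (-0.29 ± 0.08, adjusted p = 0.015). *Aurkb* and *Cdca8*, which work in 1 complex, thus had log2 fold changes of opposite sign, of which only that of *Cdca8* passed the adjusted p.

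Of the 12 mitotic kinesins, 10 had log2 fold changes above 0, beside 6063 of all 11979 genes tested, and the median was 0.18. Some of the 10 were close to 0, such as *Kif15* (0.02) and *Kif22* (0.03). Only 1 was a DEG (8.33%, beside 22.0% of all genes). *Kif14*, a motor of the midbody needed for cytokinesis, was at 28.4, 31.9 and 25.5 CPM in control and at 66.2, 60.2 and 53.0 CPM in Kit-lo (1.06 ± 0.14, adjusted p = 0.00025). *Kif20a*, which brings the passenger complex to the midzone and has the highest CPM of these kinesins, was at 369, 327 and 384 CPM against 505, 445 and 439 CPM (0.36 ± 0.09, adjusted p = 0.011), and shares 29.3% of its exonic bases with *Cdc23* on the opposite strand. *Kif18b*, *Kif2c* and *Kif4*, which act on astral microtubules, centromeric microtubules and chromosome arms, also passed the adjusted p at log2 fold changes of 0.41 ± 0.14, 0.27 ± 0.08 and 0.24 ± 0.08. *Kif11*, the motor that separates the poles, lay lower in every Kit-lo library but by a small step (-0.16 ± 0.09, adjusted p = 0.21). So did *Kif2a*, at 25.4, 23.0 and 26.6 CPM against 17.6, 21.7 and 22.3 CPM (-0.28 ± 0.15, adjusted p = 0.18). For *Kif15*, *Kif18a*, *Kif20b*, *Kif22* and *Kif23* the groups overlapped.

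**Figure D3:**
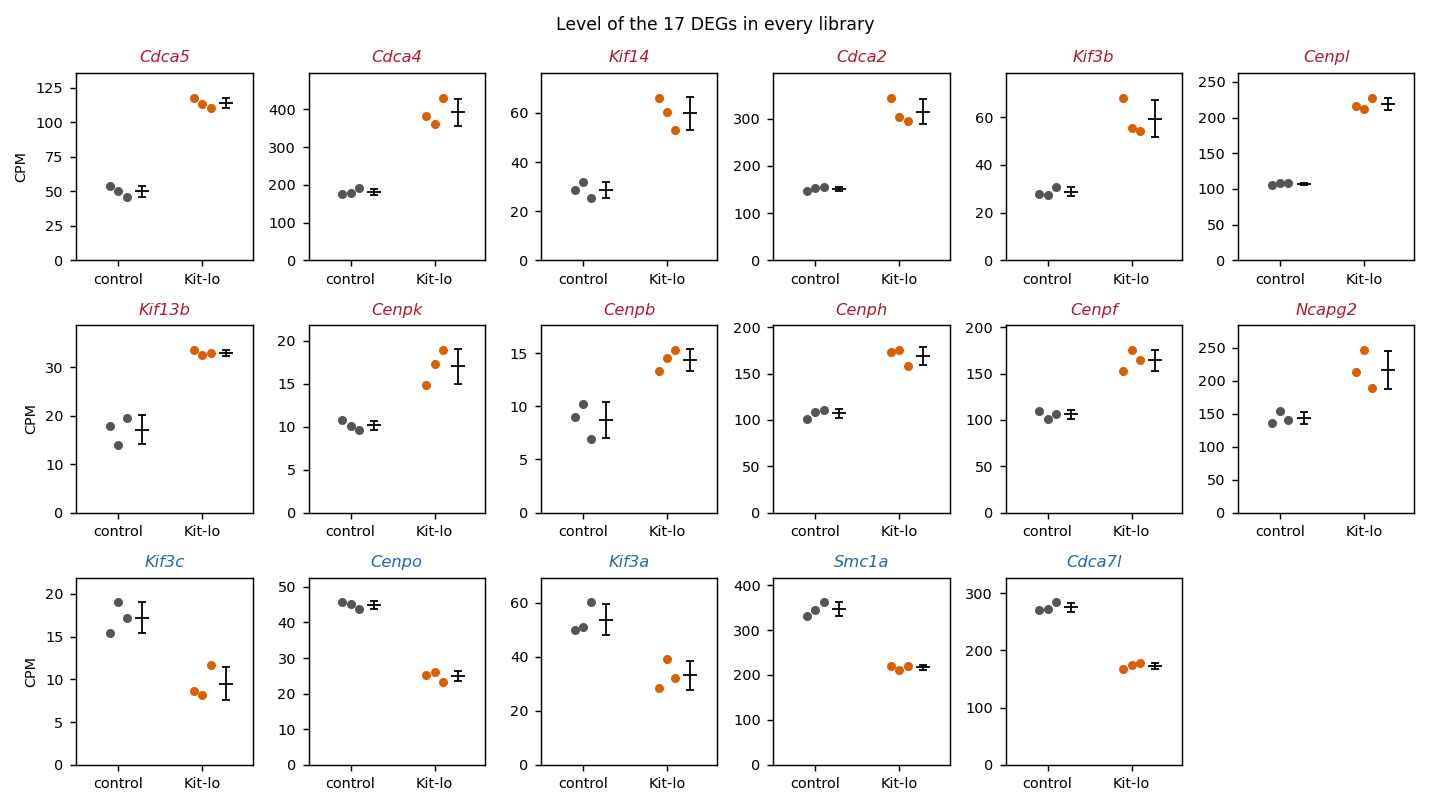
CPM of the 17 DEGs in each of the 3 control (grey) and 3 Kit-lo (orange) libraries, with the mean and SD of each group as a black bar and every axis starting at 0. In each of the 12 panels with a red title all Kit-lo points lie above all control points, and in each of the 5 with a blue title all lie below. Relative to their mean, the control points of *Cenpl* are the tightest (106 to 109 CPM).

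In condensin 1 of 8 genes rose and none fell (12.5%, beside 22.0% of all genes), and the median log2 fold change was 0.10. *Ncapg2*, a HEAT subunit of condensin II, was its only DEG, at 136, 155 and 140 CPM in control and 213, 247 and 190 CPM in Kit-lo. The groups do not overlap, but the fold of 1.51 lies barely past the threshold (log2 fold change 0.59 ± 0.11, adjusted p = 0.0021), and the call was lost in 7 of the 15 alternative analyses. The other condensin II subunits, *Ncapd3* (0.13 ± 0.11) and *Ncaph2* (0.12 ± 0.09), overlapped between the groups, as did *Ncapd2* (0.04 ± 0.07), *Ncapg* (-0.06 ± 0.08) and *Ncaph* (-0.01 ± 0.12) of condensin I. The core subunits also overlapped: *Smc4* had 394, 359 and 407 CPM against 381, 488 and 354 CPM (0.08 ± 0.12), and *Smc2* had a log2 fold change of 0.24 ± 0.10. *Ncapd2*, close to *Smc4* in CPM, was at 369, 386 and 381 CPM in control and 417, 383 and 370 CPM in Kit-lo. Relative to *Ncapg*, its counterpart in condensin I, *Ncapg2* had a ratio of levels per kilobase of 0.651, 0.829 and 0.725 in control and 1.16, 1.25 and 1.02 in Kit-lo. This and the further ratios below were picked after the values were seen and carry no test.

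In cohesin, a core subunit fell and a regulator rose. *Smc1a*, which pairs with *Smc3* in the cohesin ring, was at 331, 345 and 362 CPM in control and at 219, 211 and 220 CPM in Kit-lo (log2 fold change -0.68 ± 0.07, adjusted p = 8.8e-05). *Smc3* overlapped between the groups (-0.27 ± 0.11, adjusted p = 0.080). The ratio of *Smc1a* to *Smc3* per kilobase was 2.001, 2.57 and 2.14 in control and 1.56, 1.65 and 1.83 in Kit-lo, without overlap. *Cdca5*, which encodes sororin, the protein that keeps cohesin closed on replicated chromatids, showed the largest rise among the DEGs of this family: 54.1, 50.1 and 45.7 CPM in control and 118, 113 and 111 CPM in Kit-lo (1.19 ± 0.10, adjusted p = 1.8e-05). *Smc5* and *Smc6*, of the complex that resolves recombination intermediates, overlapped (-0.24 ± 0.12 and -0.05 ± 0.12).

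**Figure D4:**
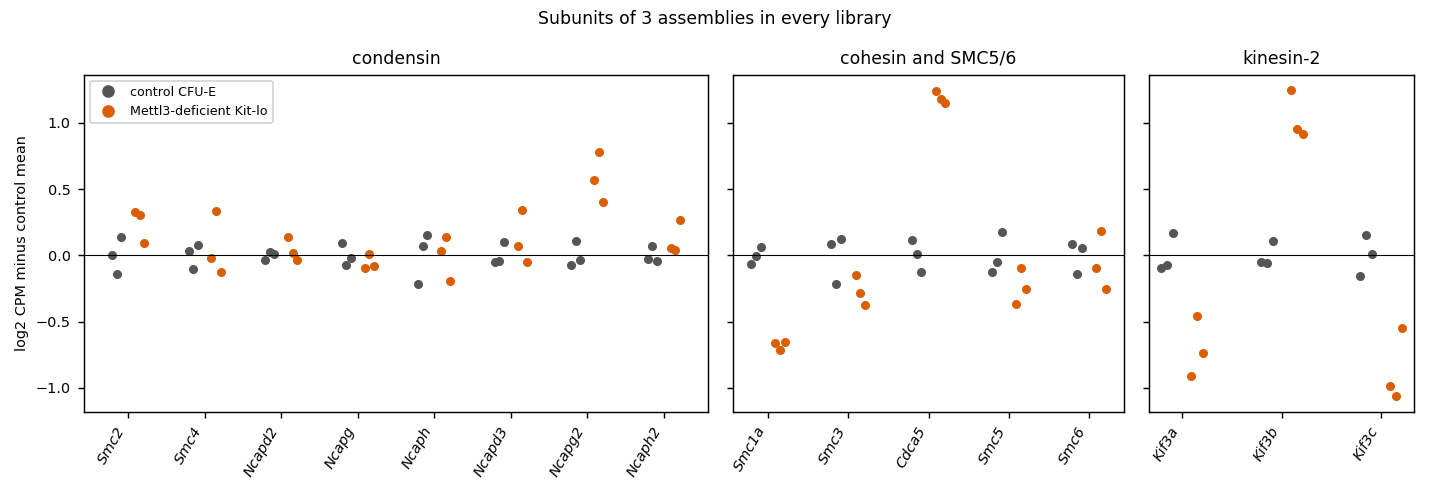
Log2 CPM of each subunit in every library minus the mean of the 3 control libraries, for condensin, cohesin with SMC5/6, and kinesin-2 (control grey, Kit-lo orange). *Ncapg2* alone stands clear of the control points in condensin, *Smc1a* and *Cdca5* part in opposite directions in cohesin, and *Kif3b* lies above and *Kif3a* and *Kif3c* below their control points.

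The remaining CDCA genes gave 2 rises and 1 fall among 5 (60%, beside 22.0% of all genes). *Cdca4*, a SERTA-domain protein, was at 175, 178 and 191 CPM in control and 383, 362 and 431 CPM in Kit-lo (1.11 ± 0.09, adjusted p = 1.3e-05). *Cdca2*, or Repo-Man, which brings protein phosphatase 1 to anaphase chromatin, was at 148, 152 and 155 CPM and then 344, 303 and 295 CPM (1.05 ± 0.08, adjusted p = 1.5e-05). For both, every Kit-lo library lay far above every control library. *Cdca7l*, a paralog of the chromatin factor gene *Cdca7*, was at 270, 273 and 285 CPM and then 167, 175 and 178 CPM (-0.67 ± 0.07, adjusted p = 0.00010). It shares 22.4% of its exonic bases with *Dnah11* and *Gm20613* on the other strand. *Cdca7*, a partner of the HELLS remodeller, overlapped between the groups, at 322, 302 and 327 CPM against 317, 295 and 296 CPM (-0.07 ± 0.07), so the ratio of *Cdca7l* to *Cdca7* per kilobase passed from 0.686, 0.741 and 0.714 to 0.432, 0.486 and 0.491. *Cdca3*, which encodes a protein of mitotic entry, overlapped as well (0.09 ± 0.08).

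Kinesins that mainly carry cargo gave 2 rises and 2 falls among 16 tested (25%, beside 22.0% of all genes), with a median log2 fold change of -0.09. Of these DEGs, 3 belong to kinesin-2, a motor in which KIF3A pairs with KIF3B or KIF3C. *Kif3b* was at 27.6, 27.6 and 30.9 CPM in control and 68.2, 55.5 and 54.1 CPM in Kit-lo (1.05 ± 0.13, adjusted p = 0.00022). *Kif3a* was at 49.99, 50.9 and 60.2 CPM and then 28.4, 39.0 and 32.0 CPM (-0.70 ± 0.15, adjusted p = 0.0046). The ratio of *Kif3b* to *Kif3a* per kilobase was accordingly 0.310, 0.304 and 0.288 in control and 1.35, 0.799 and 0.947 in Kit-lo. *Kif3c* was scarcer, at 15.4, 19.1 and 17.2 CPM and then 8.62, 8.16 and 11.7 CPM (-0.86 ± 0.20, adjusted p = 0.0077), and 40.7% of its exonic bases are shared with *1110002L01Rik* and *Gm48512* on the opposite strand. The ratio of *Kif3c* to *Kif3a* overlapped between the groups. The fourth DEG was *Kif13b*, a kinesin-3, at 17.9, 13.9 and 19.6 CPM in control and 33.6, 32.5 and 32.9 CPM in Kit-lo (0.94 ± 0.16, adjusted p = 0.0012). *Kif5b*, the conventional kinesin heavy chain with the highest CPM of the subgroup, was at 202, 186 and 191 CPM against 162, 178 and 164 CPM, below control in every library but not past the adjusted p (-0.20 ± 0.08, adjusted p = 0.086). The transport kinesins not named so far had log2 fold changes from -1.83 (*Kif26b*, adjusted p = 0.050, at 1.01 to 1.77 CPM in control and 0.157 to 0.631 CPM in Kit-lo) to 1.74 (*Kif7*, adjusted p = 0.16, at 0 to 1.72 and 2.18 to 3.44 CPM), and none passed the adjusted p. *Aurkaip1*, a mitochondrial ribosome protein that binds Aurora A, had the highest CPM of the 3 genes set apart from the other subgroups. Its groups overlapped, at 97.0, 109 and 87.4 CPM against 97.3, 101 and 106 CPM. *Cenpj*, which sets centriole length (0.31 ± 0.16), and *Cenpv* (-0.41 ± 0.34) did not pass the adjusted p either.

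Per kilobase of transcript, the scale on which levels of different genes can be compared, *Cenpa* (250 CPM per kilobase), *Cdca8* (245), *Aurkb* (199) and *Aurka* (142) led in control cells. In Kit-lo cells the first places were close together, with *Aurkb* at 220, *Aurka* at 206, *Cdca8* at 201 and *Cenpa* at 187 CPM per kilobase. None of these 4 genes was a DEG.

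The promoter elements were set beside the calls as a description. The unit here is the promoter, and a gene with several annotated starts counts more than once. The 13 promoters of genes that rose came from 10 of the 12 genes, since *Cdca2* and *Kif13b* had no entry. Of these 13, 6 held a CHR and 5 an E2F match. Of the 5 promoters of genes that fell, 0 and 2 did, and of the 59 promoters of tested genes that were not DEGs, 25 and 7 did. The CHR shares were thus 46.2%, 0% and 42.4%, and the E2F shares 38.5%, 40% and 11.9%. Among genes with a CHR near the start, *Cdca5* and *Ncapg2* rose, and *Cenpa*, whose CHR window is printed beside theirs, had values below control in all 3 Kit-lo libraries.

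Other genes of the same machinery, listed by role and not by name pattern, were tested in the same fit: of 88 tested genes 12 rose (13.6%, beside 12.1% of all genes) and 3 fell (3.41%, beside 9.83%), with a median log2 fold change of 0.04. Together these calls are 17.05% of the 88, beside 22.0% of all genes. In the kinetochore and checkpoint list 2 of 23 rose (8.70%, beside 12.1% of all genes) and none fell (beside 9.83%). *Mis12*, a scaffold of the outer kinetochore, was at 101, 85.7 and 91.4 CPM against 148, 161 and 153 CPM (0.73 ± 0.09, adjusted p = 0.00026), and *Mad2l1bp*, which encodes p31comet, the protein that takes MAD2 out of the checkpoint complex, at 12.9, 14.5 and 14.8 CPM against 68.4, 62.3 and 60.6 CPM (2.18 ± 0.13, adjusted p = 2.5e-06). Among 17 passenger, midzone and spindle genes, *Birc5* (survivin, the passenger partner of borealin; 0.87 ± 0.07), *Cit* (citron kinase of the midbody; 0.82 ± 0.08) and *Ckap2* (a spindle protein; 0.65 ± 0.10, a call lost without control replicate 3) rose and *Anln* (anillin of the cleavage furrow; -0.79 ± 0.12) fell. These calls are 23.5% of the 17, beside 22.0% of all genes. *Birc5* was at 436, 443 and 431 CPM in control and at 768, 832 and 797 CPM in Kit-lo.

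Of 19 cohesin partners and SMC5/6 subunits, *Sgo2a*, a protector of centromeric cohesin (0.77 ± 0.11), and *Nsmce3* of SMC5/6 (1.93 ± 0.32, at 1.49 to 2.98 CPM in control and 7.33 to 10.1 in Kit-lo) rose, and *Hdac8*, the deacetylase of SMC3 (-0.62 ± 0.19), and *Nsmce4a* (-0.80 ± 0.17) fell. These calls are 21.1% of the 19, beside 22.0% of all genes. The call of *Hdac8* was lost in 6 of 15 alternatives, among them the leaving out of control replicate 1 or 3 or of Kit-lo replicate 1 or 2. In the list of the anaphase-promoting complex and mitotic entry, 5 of 29 (17.2%, beside 12.1% of all genes) rose and none fell, with a median of 0.17: the CDK1-activating phosphatase gene *Cdc25b* (2.36 ± 0.17), *Fbxo5* (EMI1, an inhibitor of the anaphase-promoting complex; 1.21 ± 0.11), the mitotic transcription factor genes *Foxm1* (0.97 ± 0.16) and *Mybl2* (0.78 ± 0.11), and the mitotic kinase gene *Mastl* (0.70 ± 0.19), whose call was lost without control replicate 1 or 3 or Kit-lo replicate 2. *Cdc25b* stood at 9.67, 12.9 and 14.0 CPM in control and at 71.8, 58.5 and 57.7 CPM in Kit-lo. *Fbxo5* was at 93.0, 81.9 and 85.4 CPM and then 218, 213 and 172 CPM, without overlap.

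In the m6A experiment 81 of the 84 genes were tested for a difference between IP and input of control CFU-E cells, and 7 were higher in IP at an adjusted p-value under 0.05 (m6A-modified), which is 8.64% beside 7.90% of all 11447 genes tested. With upper quartile scaling 22.2% of the members and 12.7% of all genes were called higher, so the members' share depends on the scaling. Another 2 (2.47%, beside 7.86%) were lower in IP. *Kif21a*, *Kif28* and *Kif5a* had too few counts. The median log2 ratio of IP over input was 0.05 for the 81 genes and 0.06 over all genes, and scaling by library size alone moved the latter to 0.21, so each value is relative to the scaling. Poly(A)-primed libraries of this kind read the 3′ end of transcripts, so a value says nothing of where on a transcript m6A lies.

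*Kif2a*, a microtubule-depolymerizing kinesin, had the largest ratio, at 5.29 and 5.62 CPM in the inputs and 24.4 and 19.2 CPM in the IPs (log2 fold change 2.0 ± 0.28, adjusted p = 0.0010). It was called in all 12 alternative analyses, though 19.2% of its exonic bases are shared with *Dimt1* on the other strand. *Cenpi* was at 3.26 and 3.88 CPM and then 16.2 and 9.75 CPM (1.87 ± 0.34, adjusted p = 0.0049). *Kif3c* rests on few reads, at 0.529 and 0.787 CPM and then 2.56 and 1.86 CPM (1.77 ± 0.50, adjusted p = 0.037). The 2 IP libraries differed widely for *Ncaph*, the condensin I kleisin, at 16.7 and 11.4 CPM in the inputs and 57.7 and 21.6 CPM in the IPs (1.5 ± 0.41, adjusted p = 0.035). *Kif20a* behaved likewise, at 15.1 and 10.4 CPM and then 50.9 and 19.0 CPM (1.46 ± 0.41, adjusted p = 0.038). The calls of *Kif3c*, *Ncaph*, *Kif20a*, *Ncapd2* (0.94 ± 0.27) and *Cdca2* (0.90 ± 0.22) were each lost when 1 of 3 libraries (either input or the first IP) was left out, which left 1 or 2 genes called. Leaving out the second IP gave 14 calls. That of *Cenpi* was lost without the first input. Each gene called higher in IP stood lower in input than in the RNA-seq of control cells, as given under the other observations.

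*Cenpv*, a microtubule-associated protein set apart here from the kinetochore subgroups, was far lower in IP, at 192 and 180 CPM in the inputs and 13.2 and 15.6 CPM in the IPs (-3.69 ± 0.24, adjusted p = 6.9e-06), in every alternative. *Kif1bp*, a partner of kinesins with no motor of its own, was at 28.4 and 16.8 CPM and then 7.96 and 7.14 CPM (-1.58 ± 0.31, adjusted p = 0.0076), a call lost without the first input. No gene of the inner or outer kinetochore, Aurora, condensin or cohesin subgroups was lower in IP, beside 7.86% of all genes. With 17, 10, 3, 8 and 5 genes tested in these subgroups, few calls would come at that share. The 7 genes higher in IP had a median transcript length of 3841 bases and 0.864 GGACT motifs per kilobase, a common form of the m6A consensus, against 3437 bases and 1.05 per kilobase for the 72 without a call. *Kif20a* has 0 GGACT in its longest coding transcript.

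Of the 7 m6A-modified genes 2 were DEGs, beside 21.5% of the members and 22.0% of all genes tested between Kit-lo and control. With 7 genes these shares cannot be told apart. *Cdca2* was m6A-modified and higher in Kit-lo, *Kif3c* was m6A-modified and lower, and the other 5 modified genes, *Kif2a*, *Cenpi*, *Ncaph*, *Kif20a* and *Ncapd2*, were not DEGs. Neither of the 2 genes that were lower in IP was a DEG, a count too small to set beside the share of all genes. Across the 78 genes tested in both, the 2 log2 fold changes had a Pearson r of 0.03 and a Spearman rho of -0.01, a description across genes, which are not independent replicates. *Cdca5*, which rose the most, was at 140 and 144 CPM in the inputs and 115 and 117 CPM in the IPs and did not pass the adjusted p (-0.29 ± 0.21, adjusted p = 0.35).

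**Figure D5:**
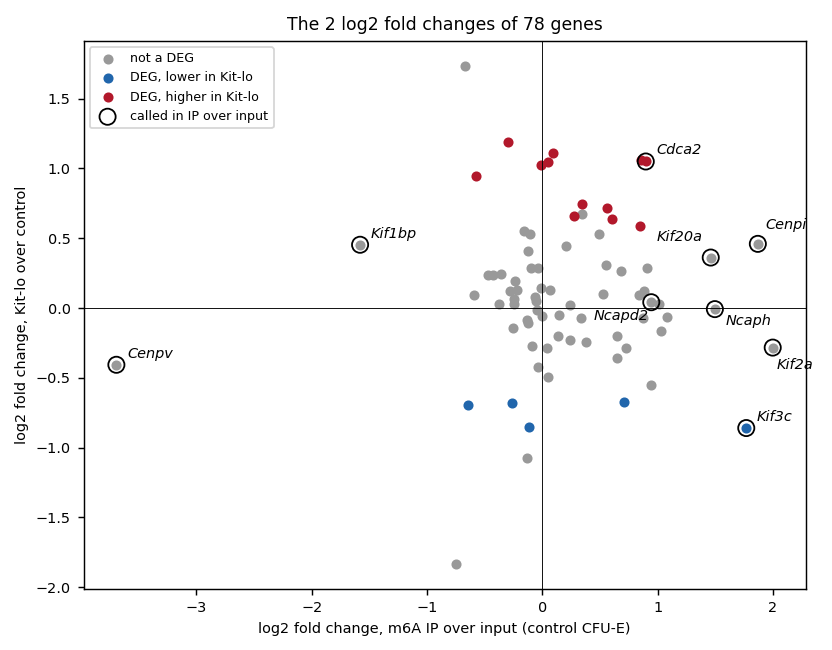
Log2 fold change of Kit-lo over control against that of IP over input in control CFU-E cells, for the 78 genes tested in both experiments. Circled genes passed the adjusted p in IP over input; 1 of them (*Cdca2*) is among the red DEGs that rose and 1 (*Kif3c*) among the blue that fell, and the points show no slope (Pearson r 0.03).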

How the data were processed

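Per the labels and the study's methods, the authors filtered reads with fastp 0.23.4, quantified transcripts with Kallisto 0.48.0 on mm10 (the submitters' processing notes also list GRCm39), summed transcripts to genes with tximport, and deposited estimated counts per gene without normalization, in 1 column for each library. All values were whole numbers. The RNA-seq used Smart-seq2 and the m6A experiment SLIM-seq with a molecular identifier, whose use in the counting is not stated, nor is the use of strand.

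Each experiment was fitted on all its genes with edgeR 4.0.16 in R 4.3.3 (TMM, filterByExpr, quasi-likelihood test, Benjamini-Hochberg adjustment over all genes tested). DEGs needed a fold change of 1.5 and an adjusted p under 0.05. The standard error is the size of the log2 fold change over the square root of F, and values after ± beside a log2 fold change are standard errors. CPM uses TMM. DESeq2 1.42.0, other scalings and filters, a block and leaving out each library were alternatives. The fits were tested on simulated data. The members, subgroups and lists were chosen with earlier results of these data known. Every DEG, the gene of highest mean CPM in each subgroup, the genes called in IP and the DEGs of the other lists are named with values. Coordinates and transcripts come from GENCODE for GRCm38, in which 99.9% of symbols were found, and promoters from RefSeq for GRCm38.p6. Figures used Python 3.11.15 with matplotlib 3.10.9. The 6 ProE samples were not analysed here. Replicate libraries were never identical, and differed by 9.48 to 39.8 (RNA-seq) and 40.7 to 64.4 (m6A) chi-square per degree of freedom. Intervals of counting are not given, since replicate spread was far above it. A promoter window of 1 further gene is not reported here.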

Additional observations from a re-analysis of the deposited data

How the results depend on the processing

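Of the 17 DEGs, 15 were called in every alternative other than the test against a fold of 1.5, the exceptions being *Cenpb* and *Ncapg2*. Without the fold threshold 19 genes were higher and 9 lower, and when the fold of 1.5 was itself the null value 6 were higher (*Cdca5*, *Cdca4*, *Cdca2*, *Kif14*, *Kif3b* and *Cenpl*) and 0 lower. By DESeq2 13 were higher and 5 lower. Leaving out 1 library at a time gave 10 to 16 higher, 5 to 6 lower and a median log2 fold change of 0.04 to 0.10. It was 16 without Kit-lo replicate 3. In the m6A experiment the count higher in IP was 18 with upper quartile scaling, and by DESeq2 4 genes were lower. Leaving out 1 library there gave 1 to 14 higher and 1 to 2 lower, with the lone library of an arm assumed to vary like the other arm. The cause of these moves was not tested. No called value changed sign, while uncalled log2 fold changes did so in some alternative for 12 genes between Kit-lo and control and for 28 between IP and input. Samples of the 2 groups share replicate numbers, but same-numbered RNA-seq libraries did not deviate together (r from -0.07 to 0.03), nor does a label tie the m6A pairs (r = 0.21). With the number as a replicate block, the RNA-seq gave 11 higher and 5 lower, and the m6A experiment 21 higher and 4 lower (25.9% of the members higher, beside 15.6% of all genes). Reads limit *Kif7*, *Kif9*, *Kif21a*, *Kif26b* and, in IP, *Kif3c*, for which no firm statement can be made.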

Other observations

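Control CFU-E cells were measured in both experiments, as RNA-seq and as input of the m6A libraries, and some genes stood at very different levels in them. The tables were normalized separately and the libraries made in different ways, so the values stand side by side without a test. Of the 78 genes tested in both, the mean CPM of the inputs was at least 4 times the RNA-seq mean in 7 genes, and the RNA-seq mean at least 4 times that of the inputs in 31. *Cenpv* was at 4.04 CPM in RNA-seq and 186 CPM in input, *Cenpk* at 10.1 and 94.8 CPM, *Bub3* at 98.7 and 754 CPM and *Spc25* at 38.3 and 275 CPM. In the other direction, *Kif11* was at 205 CPM in RNA-seq and 4.004 CPM in input, and *Ncapd2* at 379 and 12.3 CPM. These genes were chosen after their values were seen. *Cenpv* is also the gene with the lowest ratio of IP to input. For the genes lower in IP, *Cenpv* and *Kif1bp*, input over RNA-seq was 46.0 and 6.61. Among those higher in IP it was 0.032 for *Ncapd2*, 0.035 for *Kif20a*, 0.038 for *Kif3c* and 0.057 for *Ncaph*. It was 0.075 for *Cenpi*, 0.218 for *Kif2a* and 0.303 for *Cdca2*, beside a median of 0.416 over the 78 genes. Whether the input level bears on the ratio of IP to input was not tested.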
